A study of Mus musculus with 12 samples.

Results

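Livers of mice that received phloridzin with carbon tetrachloride (CCl4) were compared with livers of mice that received silibinin with CCl4. The members were chosen by the labels, which name 3 phloridzin and 3 silibinin livers, 6 of the 12 livers in the series. The study induced liver fibrosis in male C57/BL6N mice over 8 weeks, by 2 intraperitoneal injections of CCl4 in olive oil per week (5 mL/kg). Drug treatment began in week 5, with silibinin at 27 mg/kg (rounded) or phloridzin at 40 mg/kg, the highest of its doses, so the doses of the 2 drugs differed. The model group received CCl4 without a drug, the control group is labelled WT, and each of these groups holds 3 livers. Each library is total RNA of 1 liver sample, and the ages of the mice were not given in the sources used here. The question was how far the liver transcriptomes differed between the 2 drugs under the same injury.

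Phloridzin is a plant dihydrochalcone glucoside known as an inhibitor of the sodium-glucose cotransporters, which take up glucose in gut and kidney. Silibinin is a flavonolignan of milk thistle used as a liver protectant. CCl4 is activated by cytochrome P450 enzymes, mainly Cyp2e1, in hepatocytes around the central vein, and repeated injury leads stellate cells to deposit collagen.

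Values are FPKM (fragments per kilobase of transcript and M fragments), summed over the transcripts of a gene and divided by a factor for each liver, the median over genes of the ratio to the average liver. The depth read from the values was 106.7 to 110.9 M fragments in the silibinin livers and 98.5 to 104.7 M fragments in the phloridzin livers. It was 83.7 to 101.5 M fragments in the model livers and 105.2 to 109.6 M fragments in the control livers. Albumin, the main secreted protein of hepatocytes, was at 23279, 27535 and 14529 FPKM with silibinin and 16796, 23010.2 and 17041 with phloridzin.

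Phloridzin liver 1 stood apart from the other drug-treated livers. Across genes, its Pearson correlation with the other 5 livers was 0.918 to 0.936, and pairs without it reached 0.940 to 0.954. In phloridzin liver 1, 218 genes lay more than 1 log2 unit above all 5 other drug-treated livers, against 13 to 46 genes in each of the others. More than 1 log2 unit below all 5 others lay 54 genes in this liver and 29 to 55 in each of the others. This liver was at 47.1 on the main axis of variation of the 6 livers, which held 31.7% of the variance, and the other 5 livers were between -22.9 and 6.49. List medians are given with and without this liver.

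Few genes separated the drugs beyond the spread between livers. Of 13090 genes with a mean of at least 0.5 FPKM over the 12 livers, 3 were called at a Benjamini-Hochberg adjusted p under 0.05 (limma) with a difference above 1 or below -1 in log2(FPKM + 1). This is 0.0229% of the genes tested. The genes are Klhdc7a, higher with phloridzin, and Pcgf6 and Wdr89, lower with phloridzin. Klhdc7a was listed at 0 in every liver outside the phloridzin group, so its call rests on groups without spread. With only the 6 drug-treated livers in the fit, limma called 0 genes. At an unadjusted p under 0.05, 526 genes (4.02%) passed. In 626 genes (4.78%) all 3 phloridzin livers lay above all 3 silibinin livers, and in 611 genes (4.67%) they lay below. Without scaling between livers, these numbers were 683 and 368, and with upper-quartile scaling 562 and 678, so the balance of directions depended on scaling. In the median gene, the 95% interval reached 0.41 log2 units to each side of the difference, and 81.6% of genes had an interval wholly between -1 and 1. A difference on this scale understates the change of genes with low values. Among genes that were not called, the smallest adjusted p was 0.24 (limma), so genes outside these 3 did not pass the test. They are given with values, and many with 95% intervals. Groups without overlap can have an interval that includes 0, as for Thbs1 (95% interval -0.64 to 0.20).

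**Figure D1:**
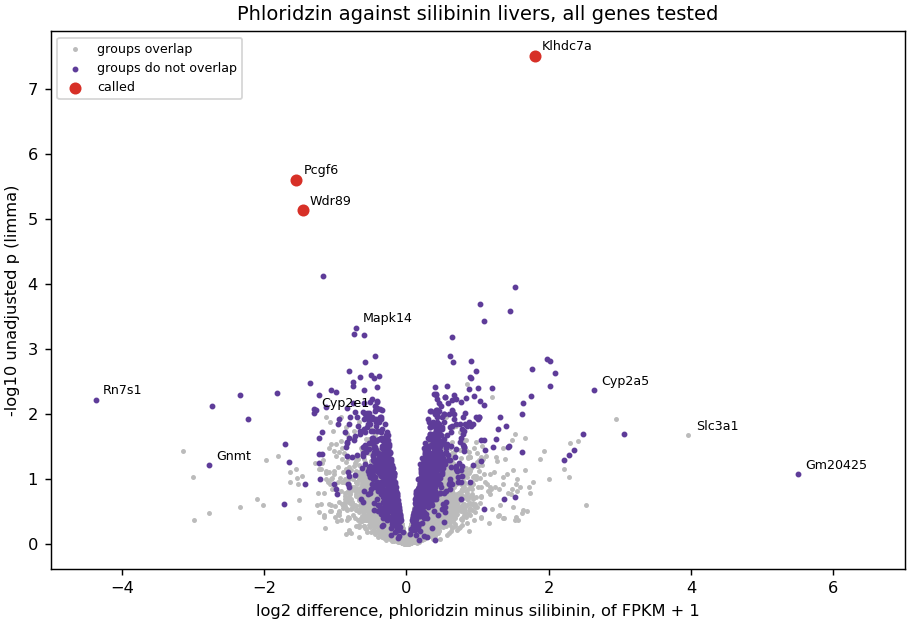
The log2 difference of each of 13090 genes (phloridzin minus silibinin, horizontal axis) is plotted against its unadjusted p on a -log10 scale (limma, vertical axis). Purple points are genes whose 3 phloridzin and 3 silibinin livers do not overlap, and the 3 red points are the called genes Klhdc7a, Pcgf6 and Wdr89.

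Klhdc7a, which encodes a kelch domain protein, lies on chromosome 4 from 139960220 to 139968026 of mouse build mm10. It was listed at 0 in all 9 control, model and silibinin livers and at 3.09, 1.82 and 2.67 FPKM in the phloridzin livers (limma, Benjamini-Hochberg adjusted p = 0.0004). Its only transcript in the table accounts for these values. It passed the filter on low values through the phloridzin livers alone, and the other groups had no spread in the fit of 12 livers. With only the 6 drug-treated livers, its adjusted p was 0.075, and over all alternatives 4e-05 to 0.075 (limma). Pcgf6, a subunit of a Polycomb repressive complex, lies on chromosome 19 from 47033619 to 47050845. It was at 3.595, 3.54 and 4.58 FPKM with silibinin and 0.626, 0.686 and 0.703 with phloridzin, or 3.91 ± 0.586 and 0.672 ± 0.0402 FPKM (SD, n = 3 livers each). The phloridzin livers were the lowest of all 12, since the model and control livers were between 3.52 and 6.77 FPKM (log2 difference -1.55, 95% interval -1.92 to -1.18, limma, Benjamini-Hochberg adjusted p = 0.016). Wdr89, a WD repeat protein on chromosome 12 from 75630596 to 75669537, was at 1.86, 2.06 and 2.41 FPKM with silibinin and 0.0117, 0.0226 and 0.387 with phloridzin. Its model livers were also low, at 0.0179, 0.0722 and 0.00852 FPKM, and its control livers were at 1.51, 1.69 and 2.85 FPKM (log2 difference -1.46, 95% interval -1.85 to -1.07, limma, Benjamini-Hochberg adjusted p = 0.032). The model livers of Wdr89 had little spread in the fit of 12 livers. With only the 6 drug-treated livers, the adjusted p of Wdr89 was 0.23, and with a pseudocount of 0.1 it was 0.11 (limma).

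Calls depended on single livers, while the differences of Pcgf6 and Wdr89 moved little. On leaving out 1 liver, the log2 difference was -1.60 to -1.45 for Pcgf6 and -1.61 to -1.38 for Wdr89. Klhdc7a was called in the 6 fits that left out 1 drug-treated liver, which says nothing of its stability, since the livers at 0 stayed in those fits. Pcgf6 was called without silibinin liver 1 and without phloridzin liver 1, and over all alternatives its adjusted p was 0.0019 to 0.087 (limma). Wdr89 was called on leaving out a liver only without phloridzin liver 3, with an adjusted p of 0.012 to 0.32 over all alternatives (limma). Without phloridzin liver 1, 6 genes were called, with Afg3l2, Zfp39, Hist1h2bg and Peak1 beside Klhdc7a and Pcgf6. Without silibinin liver 1 there were 4, with Degs1 and Galnt1 beside Klhdc7a and Pcgf6, and without silibinin liver 2 there was 1, Klhdc7a. The 2 called without silibinin liver 3 were Slc3a1 and Klhdc7a, and those without phloridzin liver 2 were Klhdc7a and Tcea1. With only the 6 drug-treated livers in the fit, limma called 0 genes, with 531 at an unadjusted p under 0.05. The genes added here were named after their values were seen.

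**Figure D2:**
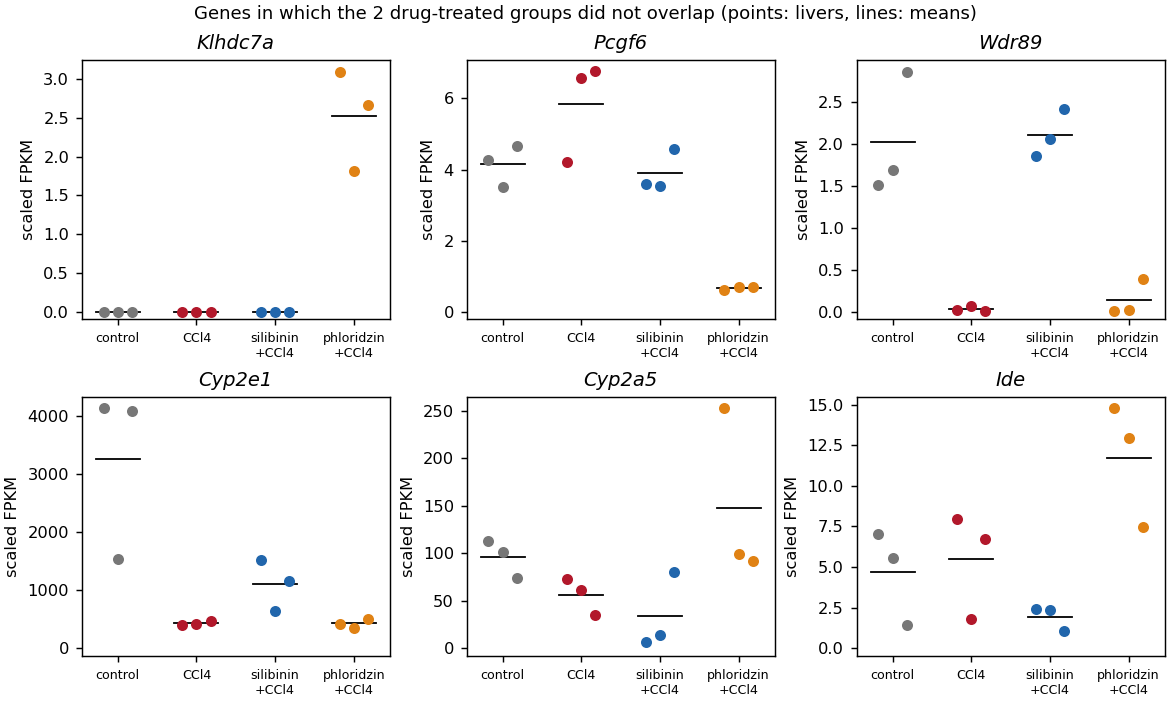
Scaled FPKM (vertical axes) of Klhdc7a, Pcgf6, Wdr89, Cyp2e1, Cyp2a5 and Ide is shown for each of the 12 livers by group, with lines at group means. In each panel the 3 phloridzin livers lie wholly above or wholly below the 3 silibinin livers, and Klhdc7a is listed at 0 outside the phloridzin group.

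Among genes with a mean of at least 1 FPKM in the drug-treated livers and groups that did not overlap, the 10 largest differences in each direction came with intervals wider than that of the median gene, except that of Pcgf6. Ide, the insulin-degrading protease, was at 2.43, 2.39 and 1.07 FPKM with silibinin and 14.8, 12.9 and 7.47 with phloridzin (log2 difference 2.09, 95% interval 0.94 to 3.25). Fbxo9, a subunit of a ubiquitin ligase, was at 2.43, 3.34 and 3.06 FPKM with silibinin and 16.2, 14.6 and 14.1 with phloridzin (log2 difference 2.02, 95% interval 0.82 to 3.23). Both genes also varied between livers without a drug. Ide was at 7.05, 5.57 and 1.46 FPKM in the control livers and 7.99, 1.82 and 6.75 in the model livers. Fbxo9 was at 2.70, 4.38 and 14.1 FPKM in the control livers and 3.70, 3.22 and 14.7 in the model livers. Ndufb7, a subunit of respiratory complex I, was at 0.473, 0.6698 and 4.202 FPKM with silibinin and 21.8, 15.2 and 18.99 with phloridzin (log2 difference 3.06, 95% interval 0.60 to 5.52). In silibinin livers 1 and 2 its level was mostly that of a retained-intron transcript, with the coding transcript at 0.0147 and 0.0136 FPKM. In the phloridzin livers it was mostly that of the coding transcript. The levels of Ndufb7 also varied within the other groups, with 10.4, 0.648 and 0.546 FPKM in the model livers and 0.6999, 0.5805 and 28.5 in the control livers. Pglyrp2, a secreted peptidoglycan amidase of the liver, was at 1.35, 1.74 and 1.63 FPKM with silibinin and 1.75, 30.7 and 32.8 with phloridzin, so its difference of 2.48 (95% interval 0.47 to 4.49) rested on phloridzin livers 2 and 3. Cpb2, which encodes a plasma carboxypeptidase that slows fibrinolysis, was at 5.06, 3.102 and 5.38 FPKM with silibinin and 6.78, 211 and 10.1 with phloridzin, and phloridzin liver 2 alone was far above the rest. Its coding transcript was at 203 FPKM in that liver and at most 0.368 FPKM in the others, where a retained-intron transcript made up nearly all of the sum. Abcf2, an ATP-binding protein used in all cells, was listed at 0 in silibinin livers 1 and 3 and in control liver 2 and at 8.67, 10.2 and 9.29 FPKM in the phloridzin livers. Among the genes tested, 39 were at 0 in at least 1 drug-treated liver while another reached 5 FPKM. Whether such values of 0 are failed estimates was not tested. The remaining genes of this kind with higher values were Gm20425, Gm12435 and AL590144.2, with differences of 5.50 (95% interval -0.86 to 11.86), 2.21 (95% interval 0.0023 to 4.42) and 2.01 (95% interval 0.97 to 3.06).

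On the lower side, Klb, the coreceptor through which hepatocytes sense the gut hormone FGF15 and the hormone FGF21, was at 11.7, 4.64 and 4.86 FPKM with silibinin and 0.152, 1.45 and 0.137 with phloridzin (log2 difference -2.34, 95% interval -3.81 to -0.88). A nonsense-mediated decay transcript held 8.43 FPKM of Klb in silibinin liver 1 and 1.99 FPKM in silibinin liver 3. The coding transcript of Klb was at 2.39, 3.85 and 2.43 FPKM with silibinin and 0.0664, 0.41 and 0.0528 with phloridzin. The sum of Klb also varied without a drug, at 9.06, 6.55 and 1.34 FPKM in the control livers and 5.63, 2.53 and 0.415 in the model livers. Gnmt, the methyltransferase that disposes of excess S-adenosylmethionine in the liver, was at 756, 796 and 1026 FPKM with silibinin and 487, 44.9 and 84.4 with phloridzin (log2 difference -2.78, 95% interval -5.71 to 0.15). It was also low at 48.6 FPKM in control liver 1 and 37.3 FPKM in model liver 1. Plec, a linker of the cytoskeleton, was at 22.4, 3.07 and 19.98 FPKM with silibinin and 1.49, 0.543 and 0.758 with phloridzin (log2 difference -2.74, 95% interval -4.57 to -0.90). Cab39l, Cept1, Tgoln1 and Hsd3b2 had differences of -2.22 (95% interval -3.84 to -0.60), -1.81 (95% interval -2.94 to -0.69), -1.72 (95% interval -4.77 to 1.33) and -1.66 (95% interval -3.35 to 0.03). The small noncoding RNA gene Rn7s1 ranged from 50.8 to 2367 FPKM with silibinin and from 7.55 to 40.7 FPKM with phloridzin, and its near-identical copies make its level uncertain. The predicted gene Gm10076 differed by -1.70 (95% interval -3.19 to -0.21).

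Cytochrome P450 genes lay on both sides. Of 57 genes listed, 4 of 50 tested genes lay higher and 3 lower with phloridzin without overlap, beside 4.78% and 4.67% of all genes, and the median difference was -0.08, -0.10 without phloridzin liver 1, and -0.15 without phloridzin liver 2 to -0.05 without silibinin liver 2. Cyp2e1, the enzyme that activates CCl4, was at 1519, 641 and 1161 FPKM with silibinin and 427, 359 and 499 with phloridzin (log2 difference -1.29, 95% interval -2.20 to -0.39). Its model livers were at 403, 427 and 464 FPKM, the same range as with phloridzin, and its control livers were at 4139.9, 1532 and 4089 FPKM. Cyp2a5, which hydroxylates coumarin, was at 6.85, 14.4 and 80.2 FPKM with silibinin and 253, 99.1 and 91.9 with phloridzin (log2 difference 2.64, 95% interval 1.03 to 4.24), where silibinin liver 3 lay near the phloridzin livers. Cyp4b1 was at 6.96, 10.7 and 8.52 FPKM with silibinin and 11.7, 14.1 and 13.5 with phloridzin. Cyp3a11, a main drug-metabolizing P450 of mouse liver, overlapped between the groups, at 1294, 2187 and 2586 FPKM with silibinin and 1219, 2673 and 1259.8 with phloridzin (log2 difference -0.28, 95% interval -1.50 to 0.95). Among conjugation enzymes, 0 of 53 tested genes lay higher and 1 lower with phloridzin without overlap, beside 4.78% higher and 4.67% lower among all genes, and the median was 0.07, 0.07 without phloridzin liver 1, and -0.0044 without phloridzin liver 2 to 0.25 without phloridzin liver 3. Ugt1a1, which conjugates bilirubin, was at 321, 290.1 and 286 FPKM with silibinin and 161, 301 and 296 with phloridzin. The lower gene in this list was Nat2, an N-acetyltransferase, at 9.14, 8.23 and 11.1 FPKM with silibinin and 4.11, 6.303 and 6.998 with phloridzin.

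Genes of fatty acid oxidation and of the nuclear receptor PPAR tended to be lower with phloridzin. In this list, 3 of 56 tested genes lay higher and 11 lower with phloridzin without overlap, or 19.6% lower beside 4.67% of all genes, and 43 of 56 had a negative difference. The median was -0.21, against 0.0043 over all genes, and -0.20 without phloridzin liver 1. No member was called. Without scaling, 5 genes lay lower without overlap, beside 2.797% of all genes, and the median was -0.17, against 0.03 over all genes. On leaving out 1 liver, the median was -0.23 to -0.15. Cpt1a, which admits fatty acids to mitochondria, was at 107, 137 and 165 FPKM with silibinin and 76.2, 93.4 and 94.9 with phloridzin. Acaa2 and Hadha, enzymes of mitochondrial beta-oxidation, had differences of -0.26 (95% interval -0.60 to 0.09) and -0.25 (95% interval -0.85 to 0.34). Cyp4a10 and Cyp4a31, omega-hydroxylases induced through PPAR alpha, were lower without overlap. Cyp4a10 was at 296, 281 and 315 FPKM with silibinin and 132, 262 and 135 with phloridzin, and Cyp4a31 at 37.4, 19.9 and 23.8 FPKM with silibinin and 15.2, 10.4 and 9.17 with phloridzin (log2 difference -1.13, 95% interval -1.90 to -0.37). Bdh1, which makes the ketone body hydroxybutyrate, was at 113, 88.2 and 101 FPKM with silibinin and 87.7, 70.3 and 44.8 with phloridzin. The exceptions were Cyp4a12a, Cyp4a12b and Fabp4, higher without overlap. Cyp4a12a was at 20.9, 22.1 and 42.4 FPKM with silibinin and 82.3, 52.4 and 59.7 with phloridzin (log2 difference 1.21, 95% interval 0.48 to 1.93). Cyp4a12a and Cyp4a12b are near-identical male-biased copies, so the level of each is uncertain. Ppara itself was at 42.6, 57.3 and 37.5 FPKM with silibinin and 54.8, 46.5 and 32.4 with phloridzin, and Cyp4a14 at 46.6, 49.9 and 231 FPKM with silibinin and 236, 38.96 and 340.1 with phloridzin, both with overlap.

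**Figure D3:**
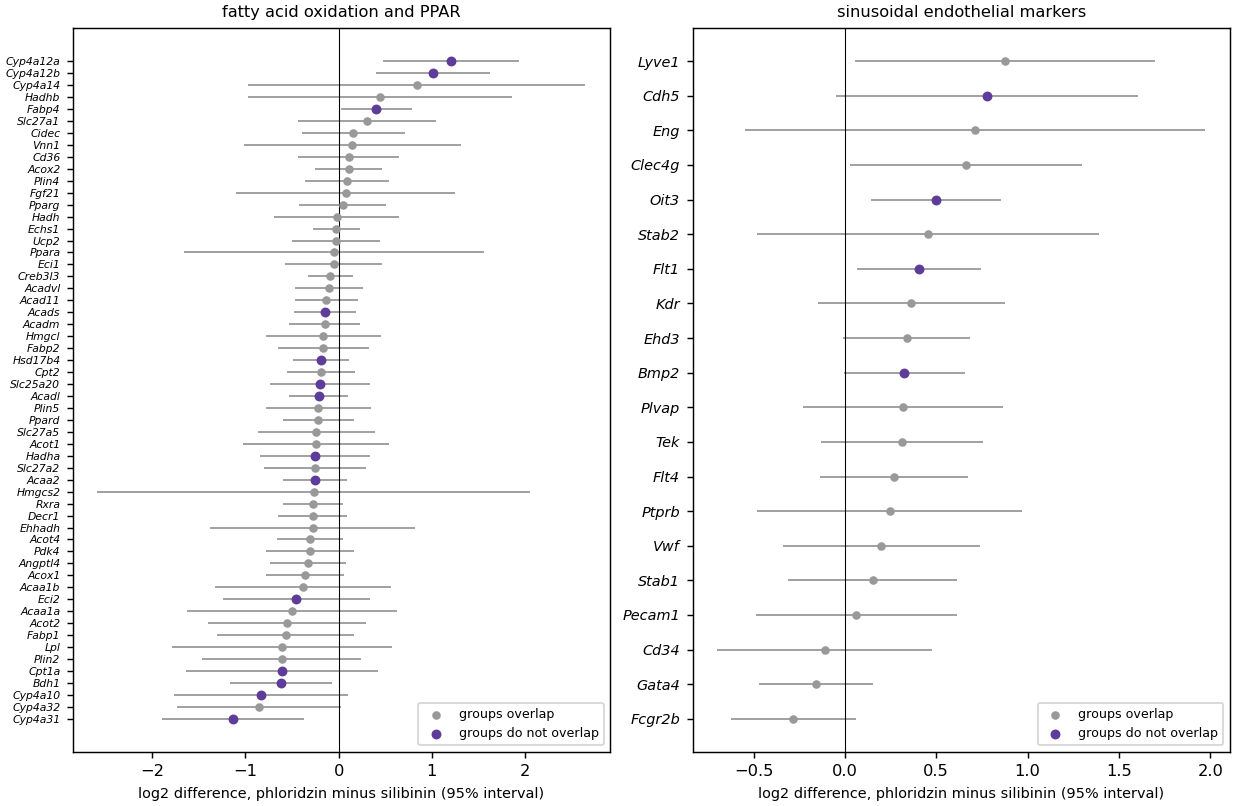
The log2 difference (phloridzin minus silibinin, points, with 95% limma intervals as lines) is shown for the genes tested of the fatty acid oxidation and PPAR list (left) and the sinusoidal endothelial markers (right). Purple points are genes without overlap between the groups. Of the oxidation genes 43 of 56 lie below 0, and of the endothelial markers 17 of 20 lie above 0.

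Some genes of cholesterol synthesis lay higher with phloridzin and 1 lay lower. In the list of cholesterol and fatty acid synthesis, 5 of 45 tested genes lay higher and 1 lower with phloridzin without overlap, beside 4.78% higher and 4.67% lower among all genes. Among the higher genes were Pmvk, Idi1, Fdps and Nsdhl of cholesterol synthesis, and the lower gene was Fdft1, the first committed enzyme of sterol synthesis. Fdps, which makes farnesyl diphosphate, was at 27.3, 29.5 and 31.00 FPKM with silibinin and 51.3, 50.6 and 81.2 with phloridzin (log2 difference 1.00, 95% interval 0.27 to 1.73). Idi1, an isomerase of the same pathway, was at 19.5, 22.9 and 15.4 FPKM with silibinin and 37.4, 32.9 and 46.4 with phloridzin (log2 difference 0.98, 95% interval 0.28 to 1.68). The list as a whole, fatty acid synthesis included, had a median of 0.04, 0.11 without phloridzin liver 1 and -0.01 without silibinin liver 3. Without scaling, 8 of its genes lay higher without overlap, beside 5.19% of all genes. Of the 44 tested genes of glucose transport, glycolysis and gluconeogenesis, 2 were higher without overlap and 0 lower, beside 4.78% higher and 4.67% lower among all genes. The median was 0.03, 0.04 without phloridzin liver 1, and -0.01 without silibinin liver 3 to 0.07 without silibinin liver 2. Aldoa, a glycolytic aldolase, was at 34.9, 46.1 and 45.6 FPKM with silibinin and 59.4, 51.6 and 60.2 with phloridzin. Pck1, an enzyme that makes new glucose, ranged from 227 to 1833 FPKM over the drug-treated livers (log2 difference -0.01, 95% interval -2.05 to 2.03), and G6pc differed by 0.18 (95% interval -0.68 to 1.05).

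The sodium-glucose cotransporters that phloridzin inhibits had low values in every liver. Slc5a1 was at 0.272, 0.237 and 0.319 FPKM with silibinin and 0.144, 0.271 and 0.412 with phloridzin, and Slc5a2 at 0.121, 0.115 and 0.158 FPKM with silibinin and 0.195, 0.114 and 0.1505 with phloridzin, both under the 0.5 FPKM mean needed for the test. Slc2a2, the main glucose transporter of hepatocytes, was at 73.1, 73.3 and 40.9 FPKM with silibinin and 42.7, 39.04 and 36.6 with phloridzin (log2 difference -0.60, 95% interval -1.31 to 0.10). Txnip, which binds thioredoxin and is induced by glucose, was at 6.81, 6.72 and 7.25 FPKM with silibinin and 7.46, 7.17 and 31.4 with phloridzin.

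Most genes in the list of sinusoidal endothelial markers had a positive difference (17 of 20). The list also holds genes of endothelial cells in general, such as Cdh5 and Flt1. In this list, 4 of 20 tested genes lay higher and 0 lower with phloridzin without overlap, beside 4.78% higher among all genes, and the median was 0.32, or 0.34 without phloridzin liver 1. Without scaling, 2 lay higher without overlap, beside 5.19% of all genes. The median was 0.54 without silibinin liver 2 and 0.19 without silibinin liver 3, and positive in every fit that left out 1 liver. The 4 genes are Cdh5, Flt1, Oit3 and Bmp2. Cdh5, the cadherin of endothelial junctions, was at 4.77, 6.96 and 2.56 FPKM with silibinin and 7.88, 10.3 and 7.22 with phloridzin. Flt1, a receptor of vascular endothelial growth factor, was at 1.25, 2.32 and 1.63 FPKM with silibinin and 2.54, 2.62 and 2.56 with phloridzin, and Oit3, a sinusoidal marker, at 6.01, 9.77 and 6.95 FPKM with silibinin and 11.4, 11.4 and 9.99 with phloridzin. The differences were 0.78 (95% interval -0.05 to 1.60), 0.41 (95% interval 0.07 to 0.74) and 0.50 (95% interval 0.14 to 0.85). Summed over the list, the levels were 144, 209.6 and 128 FPKM in the silibinin livers and 202, 228 and 188 in the phloridzin livers, with Clec4g the most abundant gene. Silibinin liver 2 overlapped with the phloridzin livers. In bulk liver, fewer cells of a type and less RNA per cell cannot be told apart, and the part of cell makeup in these differences was not tested.

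Of the major urinary proteins and male-biased genes, 5 of 35 tested genes lay higher and 0 lower with phloridzin without overlap, beside 4.78% higher and 4.67% lower among all genes, and the median was 0.24, -0.02 without phloridzin liver 1 and 0.14 without silibinin liver 1. Mup20, a secreted pheromone carrier, was at 1554, 2035 and 2524 FPKM with silibinin and 3367, 4552 and 2829.8 with phloridzin. Cyp7b1, a hydroxylase of oxysterols and a male-biased enzyme, was at 16.00, 25.7 and 42.8 FPKM with silibinin and 86.6, 65.6 and 45.8 with phloridzin (log2 difference 1.26, 95% interval 0.21 to 2.31). The control livers were at 3310.2, 3996 and 4407 FPKM for Mup20 and 202, 144 and 175 FPKM for Cyp7b1. The Mup genes are near-identical copies, and their single levels are uncertain.

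Phloridzin liver 1 differed from the other livers in whole gene lists. Of the interferon-stimulated genes, 26 of 29 were higher in phloridzin liver 1 than in all 5 other drug-treated livers, against 25.3% of all genes. The median over the list, relative to the mean of the 6 livers, was -0.04, -0.21 and -0.59 in the silibinin livers and 1.41, -0.13 and -0.22 in the phloridzin livers. The median difference between the groups was 0.61, 0.15 without this liver and 0.98 without phloridzin liver 3. In this list, 3 of 29 tested genes lay higher and 0 lower with phloridzin without overlap, beside 4.78% higher and 4.67% lower among all genes, and the higher ones were Irf7, Ifi44 and Parp14. Irf7, a transcription factor of the interferon response, was at 4.404, 2.98 and 1.37 FPKM with silibinin and 29.5, 6.35 and 7.596 with phloridzin (log2 difference 1.75, 95% interval 0.65 to 2.85). Ifit1, an antiviral effector, was at 4.24, 2.54 and 2.44 FPKM with silibinin and 20.1, 5.24 and 2.69 with phloridzin, and Isg15, a ubiquitin-like modifier, at 1.67, 1.802 and 1.001 FPKM with silibinin and 11.3, 2.55 and 1.77 with phloridzin.

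Promoters of this list are shown because most of its genes were highest in the same liver, and they were chosen after the values were seen. RefSeq promoters of build GRCm38.p6, 250 bases before to 50 bases after the start, were found for 23 of the 29 genes tested. The motif searched was the interferon-stimulated response element in a short form, which is GAAA, 2 bases of any kind and GAAA, on both strands. It was present in 14 of these 23 genes and in 3.98% of all 9449 genes tested that have a promoter. The list was made up of known interferon-stimulated genes, so a share above that of all genes was fixed by the choice of list. The share therefore says nothing of the drugs or of phloridzin liver 1. The windows are on the strand of the gene, with 1 match of each in capitals, and the windows of Ifit1 and Isg15 hold further matches in lower case. They lie at chr19:34640760-34640819 (+ strand, Ifit1), chr4:156200862-156200921 (- strand, Isg15), chr12:26456538-26456597 (- strand, Rsad2) and chr3:142620579-142620638 (+ strand, Gbp2).
Ifit1: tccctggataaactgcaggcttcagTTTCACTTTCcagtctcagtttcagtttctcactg
Isg15: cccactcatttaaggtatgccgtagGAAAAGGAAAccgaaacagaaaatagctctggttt
Rsad2: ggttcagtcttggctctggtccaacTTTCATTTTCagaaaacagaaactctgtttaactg
Gbp2: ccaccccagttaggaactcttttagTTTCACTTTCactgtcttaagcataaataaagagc

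Proliferation genes behaved likewise, with 43 of 49 higher in phloridzin liver 1 than in the other 5 livers and a median difference of 0.16. On leaving out 1 liver, it ran from -0.39 without phloridzin liver 1 to 0.46 without phloridzin liver 3. Top2a, a topoisomerase of dividing cells, was at 7.204, 5.59 and 5.07 FPKM with silibinin and 26.6, 4.298 and 2.305 with phloridzin, and Cdc20, an activator of mitotic exit, at 13.02, 13.2 and 6.69 FPKM with silibinin and 44.3, 5.06 and 4.86 with phloridzin. Of the NRF2 targets and glutathione genes, 29 of 37 were higher in this liver, and the median was 0.27, which ran from -0.08 without phloridzin liver 1 to 0.50 without phloridzin liver 3. Nqo1, a quinone reductase, was at 5.57, 6.44 and 6.84 FPKM with silibinin and 34.9, 7.15 and 5.96 with phloridzin, Cbr3, a carbonyl reductase, at 1.06, 1.81 and 2.39 FPKM with silibinin and 57.5, 1.81 and 1.63 with phloridzin, and Gstm1, a glutathione transferase, at 296, 474 and 638 FPKM with silibinin and 2176, 488 and 483 with phloridzin. In the opposite direction, 15 of 19 urea cycle and glutamine genes and 19 of 30 acute phase genes were lower in phloridzin liver 1 than in the other 5, against 21.1% of all genes. The acute phase median was -0.14, and on leaving out 1 liver it ran from -0.55 without phloridzin liver 3 to 0.34 without phloridzin liver 1, with -0.43 without silibinin liver 2 and 0.14 without silibinin liver 1. The urea cycle median was 0.01, and ran from -0.16 without phloridzin liver 3 to 0.41 without phloridzin liver 1. The hepatocyte marker list had 7 of 10 genes lowest there. Of cell markers, 12 of 17 antigen presentation genes, 12 of 25 Kupffer cell and macrophage markers and 5 of 9 T and NK cell markers were highest there, against 25.3% of all genes. Other marker lists were below that share. Highest there were 2 of 20 sinusoidal endothelial markers and 2 of 19 stellate cell and myofibroblast markers. The same held for 2 of 10 B cell and plasma cell markers and 0 of 6 neutrophil markers. The summed level of the mitochondrial-encoded subunits was 7235, 7518 and 7514 FPKM in the silibinin livers and 3604, 7323 and 6553 in the phloridzin livers, lowest in the same liver, although 3 of 9 subunits were highest and 1 of 9 lowest there. The part of this liver in other differences was not tested beyond leaving it out.

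**Figure D4:**
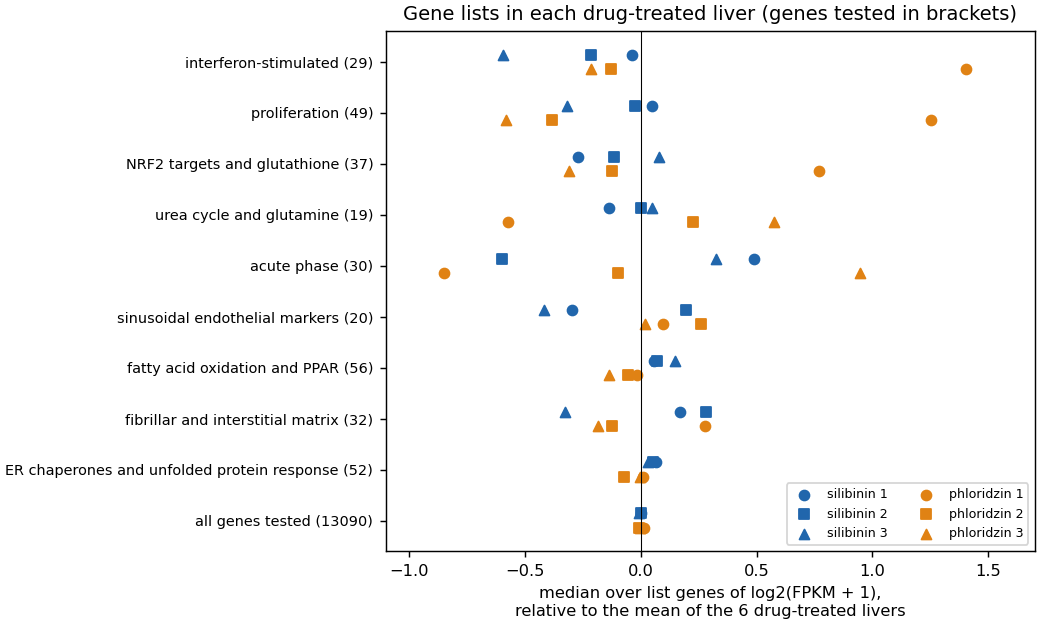
For 9 gene lists and all genes tested, each point is the median over the list of log2(FPKM + 1) relative to the mean of the 6 drug-treated livers (horizontal axis), in 1 silibinin (blue) or phloridzin (orange) liver. Phloridzin liver 1 lies at 1.41 for the interferon-stimulated list and at 1.25 for proliferation, and no other liver is above 0.1 in either list.

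In the list of fibrillar and interstitial matrix, 0 of 32 tested genes lay higher and 1 lower with phloridzin without overlap, beside 4.78% higher and 4.67% lower among all genes. The median was -0.10, and on leaving out 1 liver it ran from -0.20 without phloridzin liver 1 to 0.04 without phloridzin liver 3. Col1a1, the main collagen of scar, was at 49.8, 46.7 and 17.3 FPKM with silibinin and 75.6, 22.2 and 17.5 with phloridzin, with 39.3, 32.3 and 52.6 FPKM in the model livers and 1.87, 1.16 and 1.79 in the control livers (log2 difference -0.15, 95% interval -1.30 to 1.01). Col3a1 was at 71.3, 63.8 and 28.1 FPKM with silibinin and 86.7, 32.6 and 24.7 with phloridzin (log2 difference -0.28, 95% interval -1.25 to 0.68). In both collagens, silibinin liver 3 and phloridzin livers 2 and 3 were low and the other 3 drug-treated livers were high. Acta2, the actin of activated stellate cells, was at 2.46, 1.63 and 2.52 FPKM with silibinin and 2.47, 5.15 and 1.82 with phloridzin, and Timp1, an inhibitor of matrix proteases, at 0.682, 0.447 and 0.659 FPKM with silibinin and 1.26, 0.1305 and 1.199 with phloridzin. Tgfb1, the main profibrotic cytokine, was at 5.43, 6.88 and 7.07 FPKM with silibinin and 7.94, 8.62 and 6.297 with phloridzin (log2 difference 0.21, 95% interval -0.16 to 0.57). Thbs1, an activator of latent TGF-beta, was lower without overlap, at 1.45, 1.44 and 1.46 FPKM with silibinin and 1.16, 1.08 and 1.06 with phloridzin. Of the stellate cell and myofibroblast markers, 1 of 19 tested genes lay higher and 1 lower with phloridzin without overlap, beside 4.78% higher and 4.67% lower among all genes. Their median was 0.13, 0.10 without phloridzin liver 1, 0.07 without silibinin liver 2 and 0.05 without silibinin liver 3. The summed levels were 151, 134 and 112 FPKM in the silibinin livers and 153, 159 and 118 in the phloridzin livers, with Vim the most abundant. Parentheses give the value without phloridzin liver 1 and the range on leaving out each drug-treated liver in turn. The medians were -0.10 (-0.26, -0.26 to 0.0008) for basement membrane, 0.06 (-0.01, -0.12 to 0.13) for matrix metalloproteinases and inhibitors and 0.07 (0.03, 0.01 to 0.11) for TGF-beta signaling.

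Hspa5 and Atf3, high in the model livers, overlapped between the drugs. Hspa5, the main chaperone of the endoplasmic reticulum (ER), was at 82.1, 84.1 and 66.1 FPKM with silibinin and 66.7, 84.4 and 79.05 with phloridzin, with 399.6, 452 and 459.7 FPKM in the model livers and 146, 197 and 153 in the control livers (log2 difference -0.01, 95% interval -0.37 to 0.34). Atf3, a stress transcription factor, was at 2.37, 2.102 and 0.997 FPKM with silibinin and 2.88, 1.51 and 1.54 with phloridzin, with 36.1, 37.4 and 42.6 FPKM in the model livers (log2 difference 0.08, 95% interval -0.40 to 0.56). Ddit3, a factor of ER stress, was at 0.737, 1.47 and 1.25 FPKM with silibinin and 1.11, 1.85 and 1.096 with phloridzin, and its interval was wide, from -1.19 to 1.44. Of the ER chaperones and unfolded protein response genes, 4 of 52 tested genes lay higher and 2 lower with phloridzin without overlap, beside 4.78% higher and 4.67% lower among all genes. Parentheses hold the value without phloridzin liver 1 and the range on leaving out each drug-treated liver in turn. The medians were -0.11 (-0.06, -0.11 to -0.06) for this list, 0.08 (0.01, 0.01 to 0.06) for the integrated stress response, 0.16 (0.15, 0.12 to 0.23) for cytosolic heat shock and 0.07 (0.06, 0.01 to 0.11) for ferroptosis and iron. Slc7a11, a subunit of the cystine transporter, was at 0.125, 0.0183 and 0.207 FPKM with silibinin and 0.302, 0.0216 and 0.0425 with phloridzin, and Slc3a2, its partner, at 12.5, 16.3 and 16.7 FPKM with silibinin and 20.4, 18.8 and 17.7 with phloridzin, without overlap (log2 difference 0.31, 95% interval -0.07 to 0.70). Gpx4, which removes lipid peroxides, was at 68.5, 60.7 and 261 FPKM with silibinin and 239, 260.5 and 155 with phloridzin (log2 difference 1.04, 95% interval -0.59 to 2.68), where silibinin liver 3 was the highest of the 6. Hmox1, a heme-degrading enzyme, was at 14.1, 14.02 and 26.5 FPKM with silibinin and 25.4, 25.9 and 16.8 with phloridzin (log2 difference 0.34, 95% interval -0.35 to 1.03). Of ferroptosis and iron genes, 2 of 43 tested genes lay higher and 4 lower with phloridzin without overlap, beside 4.78% higher and 4.67% lower among all genes, and Lpcat3, which loads polyunsaturated fatty acids into phospholipids, was among the lower ones at 14.3, 19.3 and 15.8 FPKM with silibinin and 11.1, 12.02 and 12.2 with phloridzin.

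Slc3a1, a transporter subunit for cystine and basic amino acids, switched between livers. It was at 0.0477, 0.0183 and 121 FPKM with silibinin and 38.6, 84.1 and 145 with phloridzin, and at or below 0.0908 FPKM in the 6 control and model livers. Silibinin liver 3 thus lay with the phloridzin livers (log2 difference 3.96, 95% interval 0.72 to 7.21). Without silibinin liver 3 the difference was 6.26 and the gene was called (limma, Benjamini-Hochberg adjusted p = 0.00088). That fit left out the silibinin liver with a high value, so every remaining liver outside the phloridzin group was at or below 0.0908 FPKM. The call followed from that choice. Over all alternatives the adjusted p of Slc3a1 was 0.00088 to 1, and it was called in no other. Tff3, a mucosal trefoil peptide, was at 2.45, 4.24 and 18.3 FPKM with silibinin and 4.17, 33.5 and 31.9 with phloridzin, so phloridzin liver 1 lay with silibinin livers 1 and 2.

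Among inflammation genes, Tnf was at 0.185, 0.248 and 0.391 FPKM with silibinin and 0.393, 0.598 and 0.291 with phloridzin, under the level needed for the test, and Il1b at 1.84, 1.53 and 5.05 FPKM with silibinin and 1.33, 4.35 and 1.68 with phloridzin. In the TNF signaling and inflammation list, 1 of 36 tested genes lay higher and 1 lower with phloridzin without overlap, beside 4.78% higher and 4.67% lower among all genes. The median was 0.04, 0.13 without phloridzin liver 1, and -0.06 without phloridzin liver 2 to 0.23 without silibinin liver 3. The genes without overlap were Vcam1, an adhesion molecule, at 12.6, 15.1 and 14.5 FPKM with silibinin and 22.3, 22.6 and 19.2 with phloridzin, and Mapk14, a stress kinase, at 25.9, 29.7 and 31.3 FPKM with silibinin and 16.5, 16.6 and 18.9 with phloridzin (log2 difference -0.71, 95% interval -1.02 to -0.40). Neutrophil markers had a median of 0.75 over 6 genes tested of 12, 1.19 without phloridzin liver 1 and 0.23 without phloridzin liver 2, with 0 genes without overlap. S100a8, a calcium-binding protein of neutrophils, was at 13.9, 16.00 and 8.23 FPKM with silibinin and 14.95, 55.1 and 34.8 with phloridzin and was the most abundant. Their summed levels were 20.8, 29.3 and 13.5 FPKM in the silibinin livers and 22.8, 97.4 and 47.2 in the phloridzin livers, so phloridzin liver 2 was highest. Of these markers, 6 of 12 had a mean under 0.5 FPKM. S100a9, the partner of S100a8 in a protein complex, was listed at 0 in 4 of the 6 drug-treated livers, silibinin livers 1 and 3 and phloridzin livers 1 and 3. The part of neutrophils in other differences was not tested. In parentheses are the value without phloridzin liver 1 and the range on leaving out 1 liver. Medians were 0.21 (-0.01, -0.01 to 0.40) for Kupffer cell and macrophage markers, 0.10 (0.07, 0.04 to 0.23) for T and NK cells, -0.11 (-0.24, -0.28 to 0.13) for B and plasma cells and 0.16 (0.02, 0.02 to 0.24) for antigen presentation. The median of B and plasma cells was 0.13 without silibinin liver 2. Of the Kupffer cell and macrophage markers, 16 of 25 had a positive difference, and 0 lay higher and 1 lower without overlap, beside 4.78% higher and 4.67% lower among all genes. The lower gene was Ccr2, a receptor of recruited monocytes, at 3.27, 2.94 and 2.47 FPKM with silibinin and 2.35, 1.44 and 2.01 with phloridzin.

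Over all genes tested the median was 0.0043, and the remaining lists lay on both sides of it. Their medians, with the value without phloridzin liver 1 and the range on leaving out 1 liver in parentheses, were 0.02 (0.01, -0.03 to 0.01) for ErbB signaling, 0.03 (0.11, -0.04 to 0.11) for immediate early and AP-1, 0.04 (0.05, -0.0027 to 0.06) for citrate cycle and carbon metabolism, -0.01 (-0.08, -0.08 to 0.07) for drug and bile acid uptake and export, 0.02 (0.05, -0.06 to 0.06) for bile acid synthesis and 0.01 (-0.05, -0.07 to 0.04) for amino sugar and nucleotide sugar. They were -0.01 (0.03, -0.10 to 0.03) for serine, glycine, cysteine and methionine metabolism, -0.07 (0.12, -0.17 to 0.12) for apolipoproteins and secreted liver proteins, -0.0045 (0.18, -0.15 to 0.18) for pericentral and periportal zonation, 0.01 (-0.12, -0.12 to 0.07) for p53 targets and growth arrest and 0.10 (0.27, -0.05 to 0.27) for circadian clock. They were -0.03 (0.02, -0.06 to 0.02) for hepatocyte transcription factors and nuclear receptors, -0.16 (-0.16, -0.17 to -0.12) for mitochondrial-encoded subunits, -0.15 (0.05, -0.28 to 0.05) for hepatocyte markers, 0.09 (0.20, -0.04 to 0.22) for cholangiocyte and ductular markers and -0.0009 (0.05, -0.18 to 0.22) for red cell markers. Lists with few genes tested were exocrine pancreas markers (1 gene, 0.23, 0.30 without phloridzin liver 1), gallbladder and gut epithelium markers (3 genes, -0.05, -0.02 without it) and adipose and mesothelial markers (5 genes, 0.07, -0.17 without it). Pigr, which transports IgA into bile, was higher without overlap at 51.3, 47.3 and 56.6 FPKM with silibinin and 76.5, 165 and 161 with phloridzin. Egfr was at 8.33, 3.72 and 4.72 FPKM with silibinin and 7.29, 4.77 and 9.26 with phloridzin (log2 difference 0.32, 95% interval -0.31 to 0.96).

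Single transcripts were also compared, in fits added after the data were seen. Over 26509 transcripts with a gene symbol, 9 were called, and over 49820 transcripts of any kind, 14. Cd44, a receptor for hyaluronan, had 2 called transcripts in opposite directions. Its transcript ENSMUST00000111194 was at 2.47, 2.74 and 2.54 FPKM in the silibinin livers and listed at 0 in the phloridzin livers (adjusted p = 0.00017, limma). In the control and model livers it was also at 0, apart from 0.0017 FPKM in model liver 2. It passed the filter on low values through the silibinin livers alone, and the other groups had almost no spread in the fit. Transcript ENSMUST00000005218 was at 0.0833, 0.0663 and 0.0691 FPKM with silibinin and 2.91, 2.64 and 1.78 with phloridzin (adjusted p = 0.0063, limma). The sum over all transcripts of Cd44 overlapped, at 13.1, 15.5 and 14.1 FPKM with silibinin and 16.7, 15.1 and 10.7 with phloridzin (log2 difference -0.02, 95% interval -0.42 to 0.38). Slco2b1, an uptake transporter of organic anions, had 1 called transcript and another, not called, that lay in the opposite direction without overlap. Its called transcript ENSMUST00000107086 was at 2.43, 2.87 and 1.72 FPKM with silibinin and 16.8, 17.5 and 20.4 with phloridzin (adjusted p = 0.0063, limma), and the other, ENSMUST00000107088, was at 22.02, 19.6 and 17.8 FPKM with silibinin and 4.15, 7.91 and 7.48 with phloridzin. The sum of Slco2b1 was at 26.5, 25.1 and 22.8 FPKM with silibinin and 22.1, 28.1 and 31.03 with phloridzin (log2 difference 0.11, 95% interval -0.25 to 0.47). A transcript of Arhgap19, a GTPase-activating protein, and a nonsense-mediated decay transcript of Tpp2, a peptidase, were also called, both lower with phloridzin, and their gene sums were not. The Arhgap19 transcript was at most 0.38 FPKM outside the silibinin livers and passed the filter on low values through them alone. The Tpp2 transcript was listed at 0 in the model and phloridzin livers, which left these groups without spread. Transcript levels rest on how fragments were shared between overlapping transcripts, and the part of that step was not tested.

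**Figure D5:**
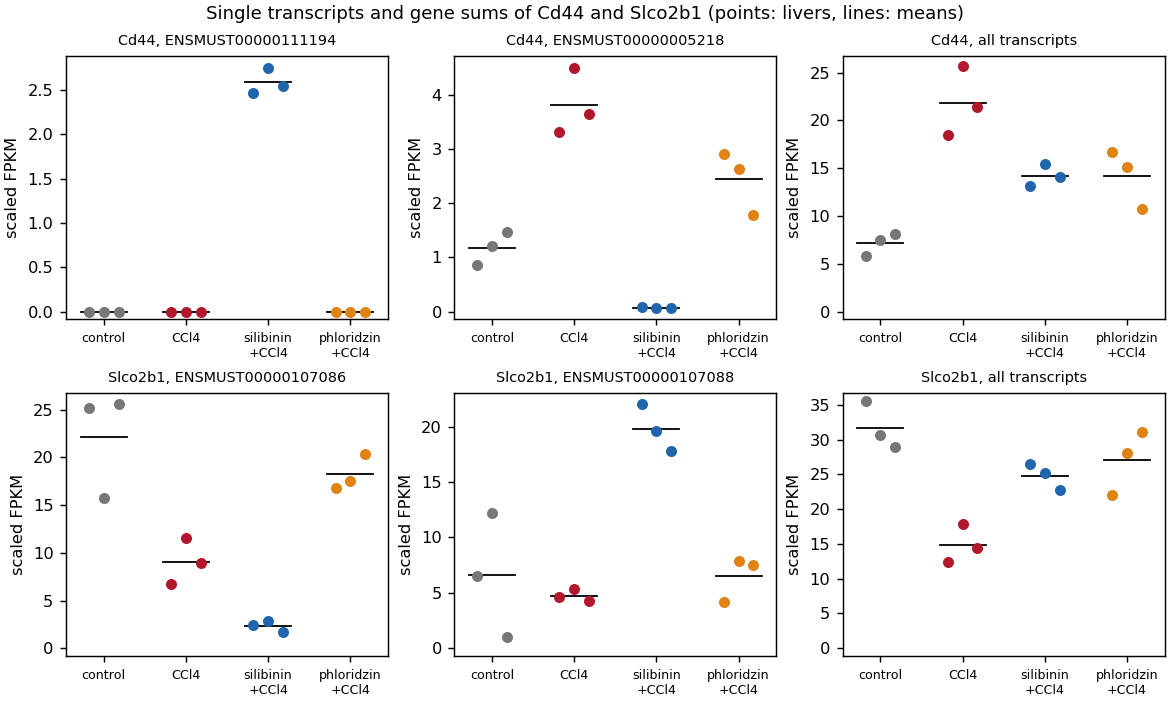
Scaled FPKM (vertical axes) of single transcripts of Cd44 and Slco2b1 and of the sum over all transcripts of each gene is shown for each of the 12 livers by group, with lines at group means. For both genes the silibinin and phloridzin livers separate in single transcripts and overlap in the sum.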

How the data were processed

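RNA of 12 livers was sequenced, 3 per group. FPKM values of 169430 transcripts per liver were deposited by the authors. Their processing notes name HISAT2 2.1.0, StringTie 1.3.3b and build mm10. In transcripts of at least 1500 bases, 98.6 to 99.1% of low values were whole multiples of 1 step (tolerance 0.05 fragments), which gave 83.7 to 110.9 M fragments per library. The 82136 Ensembl transcripts were summed over 24296 symbols, and NONCODE (68303) and assembled (18991) transcripts entered only the fit of all transcripts. Livers were scaled by median ratios over 11459 genes. Genes with a mean of at least 0.5 FPKM were tested by limma 3.58.1 with a variance trend on log2(FPKM + 1), two-sided, in 1 fit of the 12 livers, with Benjamini-Hochberg adjustment. An exact permutation test of 3 against 3 livers cannot go below p = 0.10.

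Named genes are the called genes, the 10 largest differences in each direction among genes with a mean of at least 1 FPKM and no overlap, of each of 46 gene lists the called members, or else the 2 without overlap with the largest differences, or else the 2 with the highest mean, and a fixed panel. Genes outside this rule were chosen after their values were seen: Acaa2, Afg3l2, Arhgap19, Bdh1, Card6, Cbr3, Cd44, Cdc20, Clec4g, Cpt1a, Cyp4a10, Cyp4a12b, Cyp4b1, Degs1, Flt1, Galnt1, Gbp2, Gstm1, Hadha, Hist1h2bg, Ifit1, Isg15, Mup20, Nsdhl, Parp14, Peak1, Pmvk, Rsad2, S100a9, Tcea1, Top2a, Tpp2, Vim and Zfp39. A few genes are not reported here, and they stayed in the fit and in the list counts. The members and lists were chosen with earlier results of these data known. Of 1288 list genes, 1265 were in the table. Alternatives covered scaling, pseudocount, filter, samples, a replicate block, voom and the transcripts summed. The fit was tested on simulated data. The labels call the livers samples of a group, so p-values measure the spread between these samples. No 2 drug-treated libraries were alike, since at least 609 genes differed by over 1 log2 unit between any 2 of them. Software was R 4.3.3, version 1.17.8 of data.table, Python 3.11.15, numpy 2.4.6, pandas 2.3.3 and matplotlib 3.10.9.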

Additional observations from a re-analysis of the deposited data

Results flagged for a closer look

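The transcripts without a gene symbol were outside the comparison of gene sums, and 5 of them were called between the drugs with a level above that of every control liver. Each of the 5 was high in a single drug group and at most 0.152 FPKM in every liver outside it. Each passed the filter on low values through that group alone, and the other groups had almost no spread in the fit. The calls of these 5 transcripts therefore rest on groups almost without spread. The NONCODE transcript NONMMUT039393.2 was at 5.94, 5.23 and 6.19 FPKM in the silibinin livers and at 0.0964, 0.101 and 0.144 FPKM in the phloridzin livers, with a log2 difference of -2.60 in FPKM + 1, and reached at most 0.108 FPKM in a control liver. Assembled transcripts have no position in the table. MERGE.27940.2 was at 3.26, 2.91 and 3.33 FPKM in the silibinin livers and listed at 0 in the phloridzin livers, a log2 difference of -2.06 in FPKM + 1, and was listed at 0 in the control livers. MERGE.12387.10 was at 0, 0 and 0.00895 FPKM in the silibinin livers and at 3.18, 2.88 and 1.900 FPKM in the phloridzin livers, a log2 difference of 1.85 in FPKM + 1, and reached at most 0.00508 FPKM in a control liver. MERGE.38180.23 was at 23.9, 22.4 and 6.21 FPKM in the silibinin livers and at 0, 0.0211 and 0 FPKM in the phloridzin livers, a log2 difference of -4.00 in FPKM + 1, and was listed at 0 in the control livers. MERGE.35148.9 was at 4.27, 8.66 and 22.1 FPKM in the silibinin livers and listed at 0 in the phloridzin livers, a log2 difference of -3.40 in FPKM + 1, and was listed at 0 in the control livers. Another assembled transcript, MERGE.39905.3, was called (log2 difference 2.23, adjusted p = 0.00044, limma) but lay below the control livers. It was at 0.215, 0.19 and 0.642 FPKM with silibinin and 5.98, 4.52 and 5.4 with phloridzin. Its control livers were at 15.8, 15.6 and 16.3 FPKM and its model livers at 0.0207, 0.0263 and 0.00862.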

How the results depend on the processing

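The count of 3 called genes was 3 without scaling, with upper-quartile scaling, with no fold change cutoff, with voom on recovered fragments (Card6 in place of Wdr89) and with coding transcripts only, a choice made after seeing the data. It was 2 with a pseudocount of 0.1 and with no filter. With a mean of at least 5 FPKM it was 0 (limma, 248 at an unadjusted p under 0.05), since the 3 genes are below that level. It was 0 with only the 6 drug-treated livers (531 at an unadjusted p under 0.05), which leaves fewer degrees of freedom. Single transcripts with a symbol gave 9 and all transcripts 14, both added after seeing the data. Summing only Ensembl transcripts is the same as the main sum. Leaving out 1 liver gave 1 to 6. The replicate block gave 3, all shared. Same-numbered livers correlated at 0.11, -0.0035 and 0.07 in their deviations from the group means, and phloridzin livers 1 and 3, but not 2, correlated best with the silibinin liver of their own number. Not every same-numbered pair was above 0.1, so the numbers were not taken to pair the livers. Genes without overlap were 683 higher and 368 lower without scaling and 562 and 678 with upper-quartile scaling. Leaving out 1 liver gave 1058 to 1428 higher and 1039 to 1572 lower, since 3 against 2 livers overlap less often.

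A result was taken as reversed when its direction changed, whether or not it had been called. Of 117 named genes tested, the direction changed for 20 on leaving out 1 liver and for 6 in other settings, 21 in all. None of these was called, and their largest absolute difference was 0.50. The cause was not tested. Leaving out 1 liver gave -0.67 to 0.41 for Fgb, -0.32 to 0.62 for Igkc, -0.35 to 0.16 for Hba-a1, -0.78 to 0.25 for Col1a1, -0.12 to 0.0839 for Hspa5, -0.0188 to 0.24 for Ddit3, -0.17 to 0.57 for G6pc. Leaving out 1 liver gave -0.43 to 0.0275 for Alb, -0.11 to 0.0645 for Slc7a11, -0.86 to 0.58 for Pck1, -0.21 to 0.16 for Ppara, -0.32 to 0.44 for Ugp2, -0.49 to 0.27 for Il1b, -0.15 to 0.23 for Atf3. Leaving out 1 liver gave -0.38 to 0.31 for Gstp1, -0.0142 to 0.49 for Timp1, -0.0212 to 0.54 for Acta2, -0.28 to 0.0181 for Cyb5r3, -0.0412 to 1.39 for Hbb-bs, -0.81 to 0.0774 for Col3a1. With coding transcripts only, the log2 difference was -0.0812 for E2f2, 0.0136 for Il1b, 0.0178 for Hspa5. With no scaling, the log2 difference was 0.0192 for Hba-a1, 0.0208 for Hspa5, 0.0234 for Pck1. With pseudocount 0.1, the log2 difference was -0.0773 for Slc7a11. With upper-quartile scaling, the log2 difference was -0.0032 for Slc7a11. With voom on recovered fragments, the log2 difference was -0.20 for E2f2, 0.0333 for Hspa5, -0.16 for Slc7a11. Of the 46 list medians, 15 changed direction without phloridzin liver 1 and 6 to 8 without each of the other drug-treated livers. Without phloridzin liver 3, 5 medians moved by more than 1 SD, and without phloridzin liver 1, 4.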

Other observations

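The assembled transcript MERGE.35349.41 had a pattern opposite to that of Slc3a1, and it was singled out after its values were seen. It was at 58.9, 57.4 and 4.600 FPKM with silibinin and 1.79, 0.636 and 2.03 with phloridzin, and at 54.4, 70.1 and 65.7 FPKM in the model livers and 56.1, 14.9 and 76.6 in the control livers. The 4 livers in which it was low are those in which Slc3a1 was high. The transcript has no position in the table, so whether it lies near Slc3a1 was not examined.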
